A study of Caenorhabditis elegans with 24 samples.

Results

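Y57E12B.1, Y71F9AM.8, Y60C6A.3, K06H6.1 and K06H6.2 are 5 protein-coding genes of *C. elegans*, out of 21982 genes in the mRNA-seq table. They were picked by their measured values, because the difference between *daf-2(lf)* animals and a mutant that also lacks *daf-16*, called the double mutant here, was larger in all cells than in muscle cells. The levels at low IIS and this difference are therefore given below as a description, with no test. The symbols of these genes are clone-based sequence names, and no function is given for them here.

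IIS, insulin/IGF-1 signaling, runs from the receptor DAF-2 through a chain of kinases to DAF-16, the FOXO transcription factor of *C. elegans*. With the receptor active, DAF-16 is phosphorylated and kept out of the nucleus. When the receptor is impaired, DAF-16 enters the nucleus and changes the transcription of genes for stress defence, metabolism and longevity, many of them in the intestine. A transcript that is high in *daf-2(lf)* and low in the double mutant depends on *daf-16* at low IIS, whether DAF-16 acts on the gene directly or not.

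Cells were dissociated from young adults and sorted by FACS (fluorescence-activated cell sorting). Live cells with GFP made the muscle cells libraries, and live cells taken without regard to GFP, muscle included, made the all cells libraries. All strains carried a transgene that expresses GFP in the body wall muscle. The 8 groups were wild-type muscle cells (n = 4 libraries), *daf-16(lf)* muscle cells (n = 4), *daf-2(lf)* muscle cells (n = 3) and double mutant muscle cells (n = 3), and the same genotypes in all cells, with n = 2 for wild-type, n = 2 for *daf-16(lf)*, n = 3 for *daf-2(lf)* and n = 3 for the double mutant, whose genotype is written *daf-16(lf); daf-2(lf)*. The *daf-16* allele is the deletion *mu86* and the *daf-2* allele is *e1370*, which is temperature-sensitive. The strains without the *daf-2* mutation (high IIS) stayed at 1 temperature, and the strains with it (low IIS) were raised at the permissive temperature and moved to the restrictive temperature as L4 larvae. IIS state, *daf-2* genotype and rearing history thus cannot be told apart. Within low IIS, *daf-2(lf)* and the double mutant shared that history.

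The values are TPM, in which each transcript's reads are divided by its length and scaled so that every library has an equal total. They carry no read depth. Between 9200 and 19175 genes were above 0 in a library, the fewest in replicate 1 of all cells labelled wild-type. Replicate 2 of that group held 16490, within the 14280 to 16948 of wild-type muscle cells. The sum of 5 *daf-16* transcripts that were at 0 in all muscle cells libraries of the *daf-16* mutants was 2.58 to 3.89 TPM in wild-type muscle cells, 16 to 38 TPM in *daf-2(lf)* libraries, and 0 in both all cells libraries with the wild-type label. By this sum these 2 libraries went against that label, which they keep here as a name only. Whether low depth gave these zeros was not tested. The summed level of 8 intestine markers was 3278.5 to 5030.1 TPM in all cells at low IIS and 128 to 203 TPM in all cells at high IIS. For 10 body wall muscle markers the sums were 4787.3 to 5700.3 TPM and 50360.5 to 99382.6 TPM in the same libraries. For these lists the all cells libraries at high IIS were therefore near the muscle cells libraries at high IIS. In those the intestine markers summed to 35.6 to 279 TPM. By these lists alone the labelled mixture of cell types was not borne out. Pharyngeal muscle and germline markers were higher in *daf-16(lf)* all cells than in *daf-16(lf)* muscle cells, with values given below. In all cells labelled wild-type both of these lists overlapped with wild-type muscle cells.

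All 5 genes are on chromosome V of WBcel235 except Y71F9AM.8, which is on chromosome I. K06H6.2 (WBGene00019450) lies at 585772 to 587336 and has 6 exons. K06H6.1 (WBGene00019449) follows it on the same strand at 588118 to 589657 with 9 exons, 781 bases further on. Y60C6A.3 (WBGene00271832) lies at 4785802 to 4786197 and Y57E12B.1 (WBGene00021961) at 6948525 to 6948874. These are small genes of 2 exons on the forward strand. Y71F9AM.8 (WBGene00045398), also of 2 exons, lies at 2940908 to 2941583 on the reverse strand, inside *cogc-3*, which is on the forward strand. *cogc-3* encodes a subunit of the conserved oligomeric Golgi complex.

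Each gene has 1 transcript in the table. Those of Y57E12B.1, Y60C6A.3 and Y71F9AM.8 are 237, 291 and 318 bases long, and their effective lengths in the quantification were 91.9, 130 and 151 bases. TPM of such short transcripts is less certain than that of K06H6.1 (1074 bases) and K06H6.2 (867 bases). Levels of the short and the long transcripts are set beside each other below with this limit.

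All 5 genes passed the filter for testing, at least 1 TPM in at least 3 libraries. Y57E12B.1, Y71F9AM.8 and K06H6.1 passed only through the 3 *daf-2(lf)* all cells libraries, so that a high level there was a condition for their being tested at all. Y60C6A.3 and K06H6.2 reached 1 TPM in 4 of the 21 other libraries.

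Y57E12B.1 was at 63.5, 361 and 227 TPM in replicates 1 to 3 of *daf-2(lf)* all cells. It was listed at 0 in all 3 double mutant all cells libraries and in all 4 all cells libraries at high IIS. The mean in *daf-2(lf)* all cells was 217 ± 149 TPM (SD, n = 3). In muscle cells it was listed at 0 in 11 of 14 libraries, and the 3 others were 1 *daf-2(lf)* library at 4.14 TPM, 1 wild-type library at 7.17 TPM and 1 *daf-16(lf)* library at 0.386 TPM. The highest muscle cells value of this gene thus came from a wild-type library. The lowest *daf-2(lf)* all cells library stood above every other library of the series.

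Y60C6A.3 was at 146, 267 and 521 TPM in *daf-2(lf)* all cells, the highest group mean of the 5 genes (311 ± 191 TPM, SD, n = 3). In the double mutant all cells it was at 0, 0.338 and 1.29 TPM. It was detected in all 3 *daf-2(lf)* muscle cells libraries, at 2.80, 2.21 and 4.21 TPM, against 0.723, 0.358 and 0 TPM in the double mutant muscle cells. These muscle cells groups did not overlap either, which held for 2.64% of all genes tested with *daf-2(lf)* higher. The choice used these libraries, and nothing is read from that share. At high IIS the highest library was a *daf-16(lf)* all cells library at 0.378 TPM.

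Y71F9AM.8 was at 52.4, 71 and 227 TPM in *daf-2(lf)* all cells (117 ± 96.0 TPM, SD, n = 3) and at 0.425, 0.216 and 0.413 TPM in the double mutant all cells. In muscle cells at low IIS the genotypes overlapped, with 0, 0.707 and 0.674 TPM in *daf-2(lf)* and 0.462, 0.458 and 0 TPM in the double mutant. It was the only one of the 5 genes above 1 TPM in the *daf-16(lf)* all cells libraries, at 1.64 and 1.72 TPM.

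K06H6.1 was at 26.8, 18.3 and 24.2 TPM in *daf-2(lf)* all cells (23.1 ± 4.38 TPM, SD, n = 3) and at 0.0352, 0.0537 and 0.0513 TPM in the double mutant all cells. *daf-2(lf)* muscle cells held 2.20, 0.605 and 0.577 TPM, and double mutant muscle cells 0.0191, 0 and 0 TPM. K06H6.1 was listed at 0 in all 8 muscle cells libraries at high IIS. In both kinds of cells every *daf-2(lf)* library was above every double mutant library.

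K06H6.2 was at 53.0, 28.1 and 45.6 TPM in *daf-2(lf)* all cells (42.3 ± 12.8 TPM, SD, n = 3), above K06H6.1 in each of these libraries. The double mutant all cells held 0, 0.167 and 0.0685 TPM. In muscle cells the values were 5.35, 1.15 and 1.44 TPM in *daf-2(lf)* and 0, 0 and 0.0322 TPM in the double mutant. One *daf-16(lf)* muscle cells library held 1.03 TPM, close to the lowest *daf-2(lf)* muscle cells library.

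**Figure D1:**
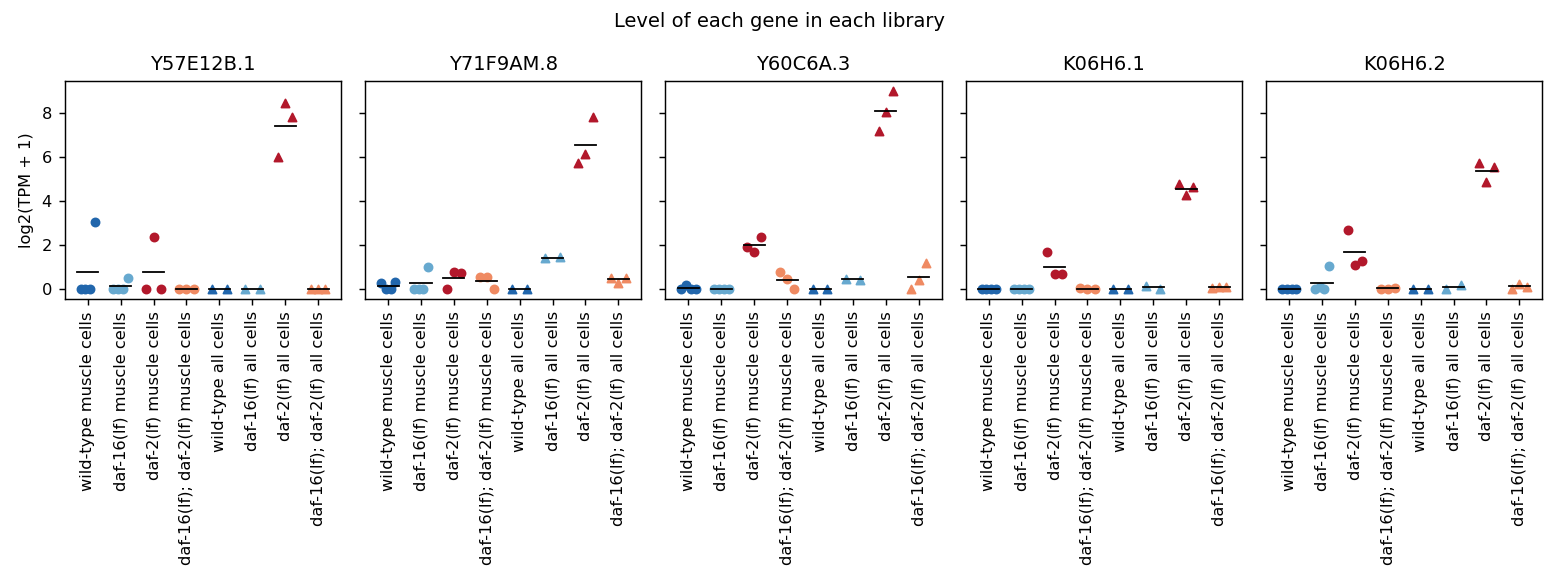
Level of each gene as log2(TPM + 1) in each of the 24 libraries, 1 panel a gene (circles: muscle cells; triangles: all cells; black line: mean of the group). In every panel the 3 *daf-2(lf)* all cells libraries are above all others, and *daf-2(lf)* muscle cells stand above the double mutant muscle cells without overlap for Y60C6A.3, K06H6.1 and K06H6.2 (2.64% of all genes tested).

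Differences were taken on log2(TPM + 1), which understates the change of low genes. Between *daf-2(lf)* and double mutant all cells the difference was 7.56 for Y60C6A.3, 7.45 for Y57E12B.1, 6.15 for Y71F9AM.8, 5.28 for K06H6.2 and 4.51 for K06H6.1. These were ranks 2, 3, 9, 20 and 40 among the 14717 genes tested. In muscle cells the differences ran from 0.14 for Y71F9AM.8 through 0.79 for Y57E12B.1, 1.00 for K06H6.1 and 1.59 for Y60C6A.3 to 1.67 for K06H6.2. With the all cells difference subtracted from the muscle cells difference, the value was -6.66 for Y57E12B.1, -6.01 for Y71F9AM.8, -5.97 for Y60C6A.3, -3.61 for K06H6.2 and -3.51 for K06H6.1, ranks 2, 4, 5, 34 and 38 from the most negative. The choice named no threshold, and other genes rank between these. With each low IIS library of the same cells left out in turn, the all cells difference stayed between 6.92 and 8.17 for Y57E12B.1 and between 4.40 and 4.66 for K06H6.1. A pseudocount of 0.1 in place of 1 raised the all cells difference to 10.76 for Y57E12B.1, 9.44 for Y60C6A.3, 7.95 for K06H6.2, 7.75 for Y71F9AM.8 and 7.29 for K06H6.1, and the muscle cells difference to 4.32 for K06H6.2, 3.28 for K06H6.1, 3.20 for Y60C6A.3, 1.80 for Y57E12B.1 and 0.33 for Y71F9AM.8. The muscle cells difference of Y57E12B.1 rested on 1 library, being 0.00 without replicate 2 of *daf-2(lf)* muscle cells.

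The level in *daf-2(lf)* muscle cells was set against that in *daf-2(lf)* all cells. These are libraries the choice used, so the ratios are a description. Mean TPM in *daf-2(lf)* muscle cells was 0.394% of that in all cells for Y71F9AM.8, 0.636% for Y57E12B.1, which came from 1 library, and 0.988% for Y60C6A.3. It was 4.88% for K06H6.1 and 6.26% for K06H6.2. The same ratio for markers of other tissues, summed over each list, was 3.51% for 8 intestine genes, 4.05% for 6 hypodermis genes, 2.38% for 4 pharyngeal muscle genes, 17.9% for 3 coelomocyte genes, 43.3% for 8 neuron genes and 39.0% for 6 germline genes. For 10 body wall muscle markers it was 714%. By these group means, the ratios of K06H6.1 and K06H6.2 lay above those of the intestine and hypodermis lists and below that of the coelomocyte list. The ratios of the other 3 genes were below that of every list.

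These ratios differed between replicates. Taken between libraries of the same replicate number, they were 8.21%, 3.31% and 2.38% for K06H6.1 and 10.1%, 4.08% and 3.16% for K06H6.2. For the intestine markers the same 3 ratios were 5.94%, 2.18% and 2.75%, also highest in the first pair. This was not particular to intestine. The first pair was also highest for hypodermis (5.53%, 3.19% and 2.64%), pharyngeal muscle, neurons and body wall muscle (784%, 651% and 703%). It was not highest for germline and coelomocytes. In the last pair the ratio of K06H6.1 was below those of the intestine and hypodermis lists, unlike in the means. The ratios of Y60C6A.3 were 1.91%, 0.828% and 0.809%. The intestine sums were 90.3 to 197 TPM in the muscle cells libraries of *daf-2(lf)* and 3278.5 to 4180.9 TPM in its all cells libraries. In *daf-2(lf)* muscle cells 7 of these 8 markers were above 0 in every library, and *elt-7*, an intestinal GATA factor, was at 0 in 1 library. The part that RNA of other tissues has in the muscle cells values was not tested. In such bulk samples fewer cells of a type and less RNA per cell cannot be told apart.

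The marker sums of each list overlapped between the genotypes in all cells at low IIS. The intestine markers summed to 3758.5 to 5030.1 TPM in the double mutant, which overlapped with and reached above the 3278.5 to 4180.9 TPM in *daf-2(lf)*. The hypodermis markers summed to 789 to 1376.4 TPM in the double mutant and to 646 to 1044.7 TPM in *daf-2(lf)*. The 5 genes were at or below 1.29 TPM in these double mutant libraries, which the choice used. The part of cell composition in their difference was not tested.

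**Figure D2:**
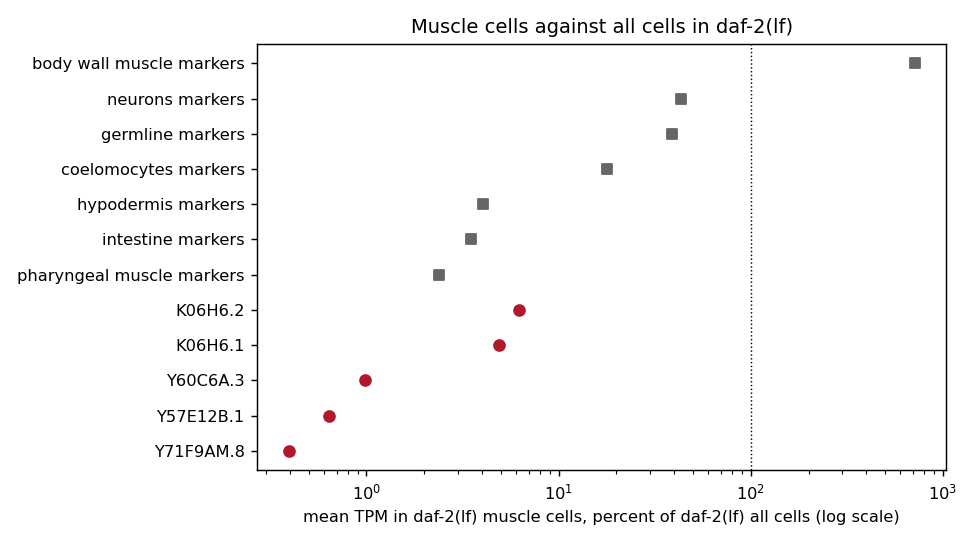
Mean TPM in *daf-2(lf)* muscle cells as a percent of mean TPM in *daf-2(lf)* all cells, on a log scale (red circles: the 5 genes; grey squares: summed markers of each tissue; n = 3 libraries in each group; dotted line: equal levels). By these means K06H6.1 and K06H6.2 lie above the intestine and hypodermis markers and below the coelomocyte markers, and the other 3 genes lie below 1%. For K06H6.1 this order did not hold in every pair of replicates.

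The replicates of *daf-2(lf)* all cells spread differently from gene to gene. K06H6.1 and K06H6.2 were lowest in replicate 2, at 79.1% and 66.6% of their group means, and highest in replicate 1. Y57E12B.1 was lowest in replicate 1, at 29.2% of its mean, and highest in replicate 2, at 166%. Y60C6A.3 and Y71F9AM.8 were highest in replicate 3, at 167% and 194% of their means. The highest library exceeded the lowest by 5.69 times for Y57E12B.1, 4.34 times for Y71F9AM.8, 3.56 times for Y60C6A.3, 1.88 times for K06H6.2 and 1.47 times for K06H6.1. No single library was highest for all 5 genes.

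The 5 genes were compared in the groups that the choice had not used. The model took 1 spread per gene from all 8 groups. The SE and p-values below thus also carry the spread of libraries that the choice used. In muscle cells at high IIS, where DAF-16 of wild-type animals is mostly held in the cytoplasm, wild-type minus *daf-16(lf)* passed the test for none of the 5 genes and for 0 of 14717 genes (0% called; limma, Benjamini-Hochberg adjusted p under 0.05). At an unadjusted p under 0.05 there were 105 genes. The difference was 0.64 ± 0.60 (log2, SE) for Y57E12B.1 with adjusted p = 1, and it was -0.12 without the single wild-type library at 7.17 TPM. For K06H6.1, at 0 in all 8 libraries, no difference could be measured.

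Between all cells labelled wild-type and those of *daf-16(lf)*, 17.5% of the genes tested passed, of which 15 were higher and 2559 lower in the libraries labelled wild-type. Y71F9AM.8 was among them, at 0 and 0 TPM against 1.64 and 1.72 TPM, a difference of -1.42 ± 0.48 (log2, SE; limma, adjusted p = 0.0449). The median difference of all genes was -0.53. The call was lost in 8 of 12 alternatives, among them all 4 fits that dropped 1 of these libraries, with adjusted p from 0.0158 to 0.301. The libraries labelled wild-type held none of the 5 *daf-16* transcripts summed above, and 1 of them held the fewest genes. No direction for DAF-16 is therefore read from them. The other 4 genes did not pass, and Y57E12B.1 was at 0 in all 4 libraries. Its SE of 0.85 (log2) therefore did not come from these libraries.

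Muscle cells were also compared with all cells within *daf-16(lf)* at high IIS, where 21.1% of genes passed, 13 higher and 3093 lower in muscle cells, with a median of -0.44. Y71F9AM.8 was the 1 of the 5 genes that passed. It was at 0, 0, 0 and 0.997 TPM in muscle cells and 1.64 and 1.72 TPM in all cells, a difference of -1.17 ± 0.41 (log2, SE; limma, adjusted p = 0.0485). This call was lost in 10 of 14 alternatives, with adjusted p from 0.0128 to 0.265. A share of 1 in 5 is near the background of 21.1%. Of the 7 marker lists, pharyngeal muscle (32.7 to 107 TPM in muscle cells, 228 to 356 TPM in all cells) and germline (124 to 190 and 237 to 380 TPM) did not overlap between these groups and were lower in muscle cells, as Y71F9AM.8 was. Their part in this call was not tested. The other 5 lists overlapped, intestine among them with 35.6 to 279 and 128 to 159 TPM.

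The neighbours of the 5 genes were described next, since they were taken by position alone. The nearest protein-coding gene on each side gave 8 genes other than the 5 themselves. Of these, 7 were in the table and 6 were tested. Y57E12B.4, Y57E12B.11, Y60C6A.2, *nstp-7* and ZK488.6 were higher in *daf-2(lf)* than in double mutant all cells, 5 of 8 against 1.72% of all genes tested. *nstp-7*, ZK488.6 and Y57E12B.4 passed the filter only through the *daf-2(lf)* all cells libraries and could be tested only because they were high there. With no filter, 7 neighbours were tested and 5 passed, against 2.31% of genes. The remaining tested neighbour, Y71F9AR.10, did not pass (2.91 ± 1.15, log2, SE; limma, adjusted p = 0.374).

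Y60C6A.2 lies 368 bases from Y60C6A.3 on the opposite strand. It was at 181, 202 and 360 TPM in *daf-2(lf)* all cells and at 0, 0.358 and 1.03 TPM in the double mutant all cells. The difference was 7.40 ± 0.45 (log2, SE; limma, adjusted p = 3.89e-10). In muscle cells it was at 0, 1.56 and 6.69 TPM in *daf-2(lf)* and at 0 in all 3 double mutant libraries, and the difference did not pass the test (1.43 ± 0.45, adjusted p = 0.222). Both genes were highest in replicate 3, and across the 24 libraries Y60C6A.2 was the gene whose log2(TPM + 1) was most like that of Y60C6A.3 (Pearson r = 0.985).

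Y57E12B.1 lies between Y57E12B.4, 982 bases away, and Y57E12B.11, 642 bases away, both on the reverse strand. Y57E12B.4 was at 3.84, 26.7 and 21.3 TPM in *daf-2(lf)* all cells and at 0.256, 0.581 and 0.268 TPM in the double mutant (difference 3.41 ± 0.42, log2, SE; limma, adjusted p = 1.19e-05). Y57E12B.11 was at 48.6, 352 and 171 TPM against 2.80, 8.55 and 8.17 TPM (4.38 ± 0.71, log2, SE; limma, adjusted p = 0.000423). All 3 genes of this locus were lowest in replicate 1 and highest in replicate 2 of *daf-2(lf)* all cells. Replicate 1 held 22.2% to 29.2% of the group mean for each of them. The order of replicates was not particular to this locus. Y71F9AR.10 on chromosome I had it too (4.79, 20.3 and 16.7 TPM). Unlike Y57E12B.1, Y57E12B.11 was above 0 in every double mutant all cells library.

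**Figure D3:**
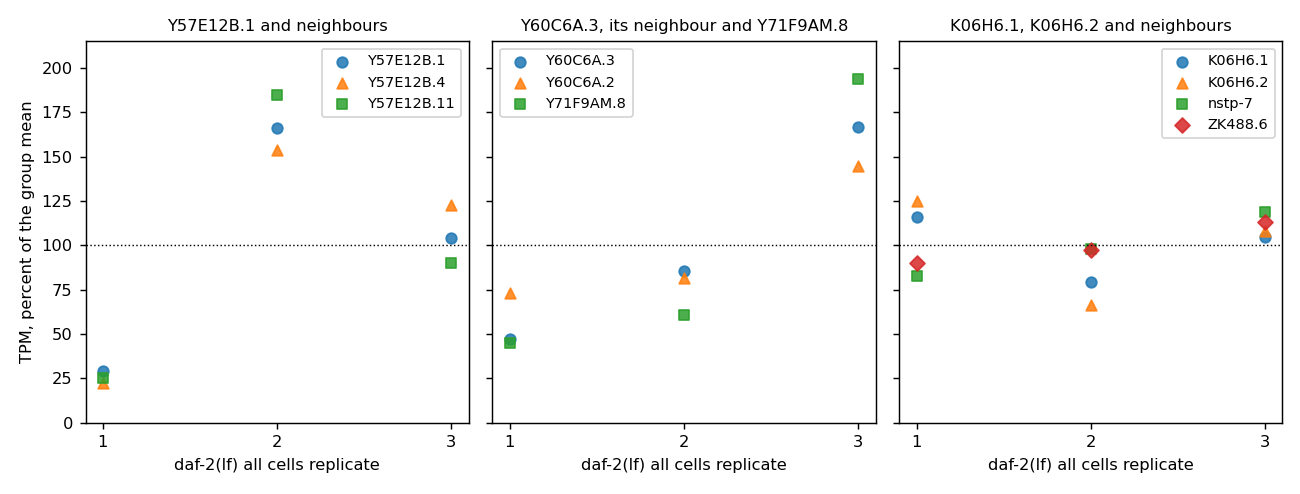
TPM in each *daf-2(lf)* all cells replicate as a percent of the mean of the 3 replicates, for the 5 genes and their neighbours that passed the test (dotted line: 100%). Y57E12B.1 and both its neighbours have replicate 1 lowest and replicate 2 highest, whereas K06H6.1 and K06H6.2 have replicate 2 lowest. Y71F9AR.10 on another chromosome, not drawn, has the order of Y57E12B.1.

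K06H6.2 and K06H6.1 follow one another, with *nstp-7* on one side and ZK488.6 on the other, all 4 on the forward strand. *nstp-7* was at 2.06, 2.45 and 2.98 TPM in *daf-2(lf)* all cells and listed at 0 in the double mutant all cells (1.80 ± 0.15, log2, SE; limma, adjusted p = 2.32e-08). ZK488.6 was at 1.98, 2.14 and 2.48 TPM against 0, 0.0335 and 0.0107 TPM (1.65 ± 0.12, log2, SE; limma, adjusted p = 6.55e-09). These levels per length were about an order of magnitude below those of K06H6.1 and K06H6.2. Neither neighbour passed the test in muscle cells.

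The surrounding genes were then read outward from K06H6.1, a choice made after their values were seen and given with no test. In a run of 7 annotated genes over 16.4 kb (K06H6.4, *nstp-7*, the pseudogene K06H6.6, K06H6.2, K06H6.1, ZK488.6 and ZK488.5), the lowest *daf-2(lf)* all cells library was above the highest double mutant all cells library for each gene. That held for 7.62% of all genes tested, and nothing is read from the 7, since 2 are the genes chosen for it and the run was picked by it. K06H6.4 ranged from 1.01 to 1.44 TPM in *daf-2(lf)* all cells and reached at most 0.0230 TPM in the double mutant. ZK488.5 ranged from 1.13 to 1.83 TPM against at most 0.0998 TPM, and K06H6.6 from 0.404 to 0.944 TPM against at most 0.0173 TPM. The run ended at K06H6.5, which reached at most 0.0349 TPM in *daf-2(lf)* all cells, and at *nhr-251*, which reached at most 0.101 TPM. Whether reads were shared between similar sequences in this run was not tested, so the lower levels in it are uncertain.

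**Figure D4:**
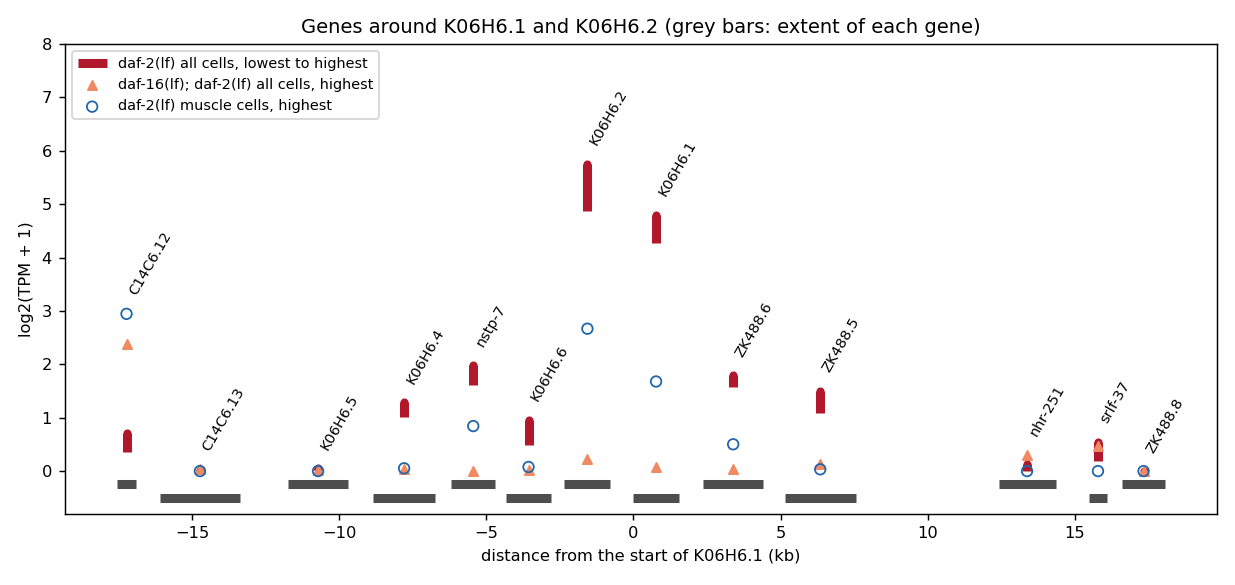
Level as log2(TPM + 1) of the genes around K06H6.1 and K06H6.2 by distance from the start of K06H6.1 in kb (red bars: lowest to highest *daf-2(lf)* all cells library; orange triangles: highest double mutant all cells library; open circles: highest *daf-2(lf)* muscle cells library; grey bars: extent of each gene). K06H6.2 and K06H6.1 stand highest, and 7 genes in a row have all *daf-2(lf)* all cells libraries above the double mutant, as 7.62% of all genes tested did.

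Around Y71F9AM.8, its neighbour Y71F9AR.10 was at 4.79, 20.3 and 16.7 TPM in *daf-2(lf)* all cells against 1.13, 0.574 and 0.548 TPM in the double mutant, without overlap but, as above, not past the test. It also reached 29.6 TPM in a wild-type and 26 TPM in a *daf-16(lf)* muscle cells library. *cogc-3*, in which it lies, was at 9.98, 9.59 and 11.5 TPM in the *daf-2(lf)* libraries of all cells, against 10.7, 9.72 and 6.90 TPM in the double mutant, and did not pass the test (0.18 ± 0.35, log2, SE; limma, adjusted p = 1). Among the library kits named by the submitters, 1 is stranded and 1 is not, and the labels do not say which library used which. Where strand is not kept, reads of Y71F9AM.8 and of *cogc-3* transcripts that cross it cannot be told apart. Mean Y71F9AM.8 in *daf-2(lf)* all cells stood above that of *cogc-3* (117 against 10.4 TPM), and its mean lay below that of *cogc-3* in each of the 7 other groups.

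For the neighbours, the contrast of the muscle cells difference with the all cells difference was tested across all genes, of which 0.768% were lower and 0.136% higher in muscle cells. The 5 neighbours that passed in all cells also passed here with a lower value in muscle cells. Their all cells difference is the term subtracted, and *nstp-7*, ZK488.6 and Y57E12B.4 could be tested only through *daf-2(lf)* all cells, so this direction was largely fixed and the count of 5 is not read against those shares. The difference of differences was -5.97 ± 0.64 for Y60C6A.2 (log2, SE; limma, adjusted p = 4.95e-06), -3.25 ± 0.59 for Y57E12B.4 (adjusted p = 0.00345) and -4.38 ± 1.00 for Y57E12B.11 (adjusted p = 0.0316). It was -1.42 ± 0.21 for *nstp-7* (limma, adjusted p = 0.000296) and -1.45 ± 0.18 for ZK488.6 (adjusted p = 2.45e-05). The call was lost in 11 of 20 alternatives for Y57E12B.11 and in 3 of 20 for Y57E12B.4 (adjusted p up to 0.526), and 1 alternative lost it for Y60C6A.2 (up to 0.0726). The all cells calls above were lost in 1 of 14 alternatives for Y57E12B.4 (adjusted p up to 0.0772) and in 2 of 14 for Y57E12B.11 (up to 0.175). Quantile normalization reduced the differences of differences of *nstp-7* and ZK488.6 to -0.06 and -0.26, neither of which passed. Median-of-ratios scaling reduced the difference of differences of *nstp-7* to -0.70, which did not pass either.

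**Figure D5:**
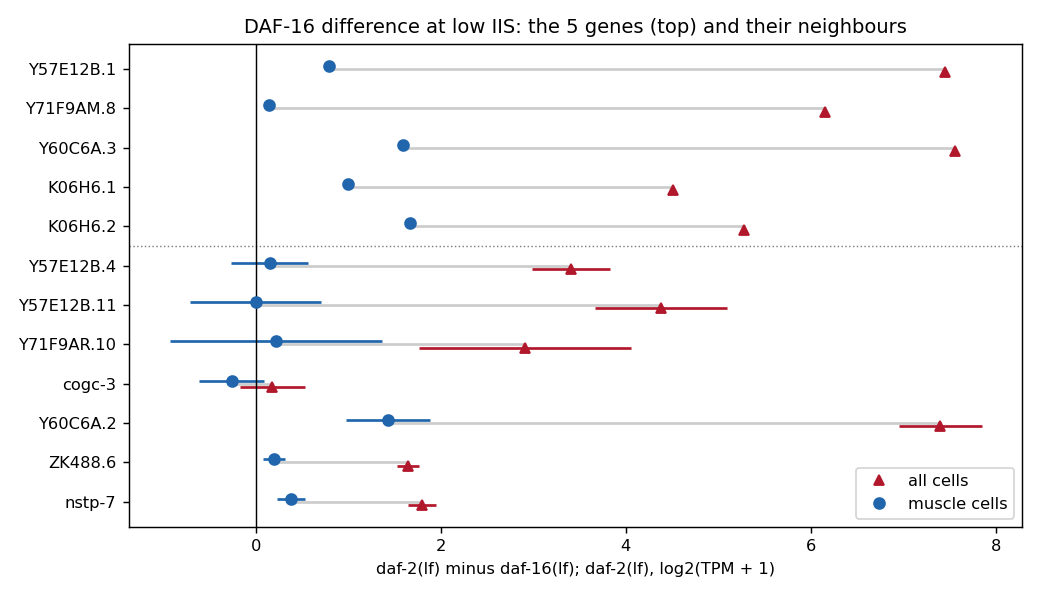
*daf-2(lf)* minus double mutant on log2(TPM + 1) in all cells (triangles) and muscle cells (circles) for the 5 genes (above the dotted line) and their tested neighbours and *cogc-3* (below it, with SE from the limma fit). The all cells value is larger for every gene drawn, from 0.18 for *cogc-3* to 7.56 for Y60C6A.3. The choice required this of the 5 genes, and it was largely fixed for the neighbours that passed in all cells. For Y71F9AR.10 and *cogc-3* the contrast between kinds of cells did not pass the test.

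The genes most like each of the 5 across the 24 libraries were found by Pearson r of log2(TPM + 1) over all genes tested. These r values rest mostly on the step between the 3 *daf-2(lf)* all cells libraries and the rest, and they are given as a description. K06H6.1 was most like *scl-13* (r = 0.993), *nstp-7* (0.990) and K06H6.2 (0.989), and *scl-13* belongs to a family of genes for secreted SCP-like proteins. *scl-13* ranged from 28.1 to 116 TPM in *daf-2(lf)* all cells and was listed at 0 in the double mutant all cells. K06H6.2 was most like K06H6.1, F45D11.2 (r = 0.981) and *scl-13* (0.980). Y60C6A.3 was most like Y60C6A.2, Y75B12B.8 (0.982) and C14C6.6 (0.980).

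Y57E12B.1 was most like ZK355.3 (r = 0.981), F48G7.7 (0.967) and *clec-101* (0.959), a C-type lectin gene. Y71F9AM.8 was most like K06H6.4 (r = 0.988), *col-108* (0.988), a collagen gene, and *smf-2* (0.985), which encodes a divalent metal transporter of the NRAMP family. *col-108* ranged from 23.2 to 67.6 TPM in *daf-2(lf)* all cells, with at most 0.691 TPM in *daf-2(lf)* muscle cells. Among the 5 genes themselves, r was highest for K06H6.1 with K06H6.2 (0.989) and lowest for Y57E12B.1 with K06H6.2 (0.885).

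Genes known to be raised by DAF-16 were set beside the 5 genes. Of 30 listed, 29 were found and tested. The list was made from general knowledge, but with earlier results of these data known. In all cells at low IIS 12 were higher in *daf-2(lf)* and 0 lower, against 1.72% higher and 0.713% lower of all genes, with a median difference of 1.38 against -0.06 (log2). With 1 library left out, 9 to 14 were higher in all cells. In muscle cells 3 were higher and 0 lower, against 0.313% higher and 0.299% lower, with a median of 0.58 against -0.19. The 3 were *sod-3* and *sod-5*, which encode superoxide dismutases, and *hsp-12.6*, which encodes a small heat shock protein.

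In *daf-2(lf)*, *sod-3* had a level of 168 ± 80.2 TPM (SD, n = 3) in muscle cells against 75.3 ± 33.0 TPM in all cells, with 1.60 ± 0.504 and 2.81 ± 1.49 TPM in the double mutant. Its level was thus higher in muscle cells, the reverse of the 5 genes. The values for *hsp-12.6* were 46.6 ± 53.4 TPM in muscle cells and 67.9 ± 29.5 TPM in all cells of the same genotype. *mtl-1*, a metallothionein gene, stood at 502 ± 378 TPM in these all cells and 40.8 ± 36.2 TPM in these muscle cells. *lys-7*, a lysozyme gene, stood at 468 ± 117 and 20.3 ± 16.4 TPM.

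Of the 29 genes, *nnt-1* alone, which encodes a nicotinamide nucleotide transhydrogenase, passed the test of a DAF-16 difference that differs between the kinds of cells (-2.52 ± 0.40, log2, SE; limma, adjusted p = 0.000758). In all cells it was at 15.4 ± 8.09 TPM in *daf-2(lf)* and 1.56 ± 0.259 TPM in the double mutant (SD, n = 3), against 0.186 ± 0.0608 and 0.170 ± 0.132 TPM in muscle cells. The median of the list for this difference of differences was -0.35, against -0.15 for all genes.

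Of 15 components of IIS itself, *ist-1* (0.91 ± 0.24, log2, SE; limma, adjusted p = 0.0446) and *pdk-1* (1.11 ± 0.29, adjusted p = 0.0479) were higher in *daf-2(lf)* all cells, and 0 were lower. The median of the 15 was 0.22 in all cells and 0.03 in muscle cells, against -0.06 and -0.19 for all genes. *ist-1* encodes an insulin receptor substrate homolog and *pdk-1* a kinase that acts on AKT. Neither call was kept when any 1 of the 6 libraries compared was left out. In muscle cells *pdk-1* was higher (1.67 ± 0.29, limma, adjusted p = 0.00544), at 6.74 ± 2.35 TPM against 1.36 ± 0.144 TPM. None of the 15 passed the test of a DAF-16 difference that differs between the kinds of cells.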

How the data were processed

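Muscle cells and all cells of 4 genotypes were examined by mRNA-seq in 24 libraries (muscle cells 14, all cells 10). The authors quantified reads with Salmon 1.4.0 on WBcel235 and deposited TPM for 35749 transcripts. The authors tested estimated counts with DESeq2. Those counts were not used here. Because TPM keeps no depth, neither a counting error nor a detection floor was computed.

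Transcripts were joined to genes with the Ensembl annotation of WBcel235 (31176 by exact name, 4485 by sequence name, 88 kept under their sequence name), and TPM was summed per gene. Testing was limited to genes that reached 1 TPM in 3 or more libraries. A linear model of log2(TPM + 1) in limma 3.58.1 (R 4.3.3) had a mean per group (8 in all). Variances were moderated by empirical Bayes with a trend on abundance. P-values were adjusted by Benjamini-Hochberg over 14717 genes and called under 0.05. The fit was tested on simulated data. Groups and replicate numbers came from the labels. The study's methods call the muscle cells replicates independent. They do not say so of the all cells replicates, so p-values among all cells may measure a spread that is partly technical. The all cells controls were taken from the dissociated samples that also gave the muscle cells. Muscle cells and all cells libraries may therefore be paired, which the main model left out.

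The genes and lists were chosen with earlier results of these data known. Genes named are the 5 genes, list genes past the threshold and the markers, the 3 genes of highest Pearson r with each of the 5, and the nearest protein-coding gene on each side. Other genes of the K06H6 run and *cogc-3* were added after their values were seen. Protein sequences, promoter motifs and similarity between genes were not analysed here. *hsp-16.11* had no match by its own symbol, since the annotation calls that locus *hsp-16.1* as well, and counts only under that symbol. Y71F9AM.11 was not analysed here.

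Alternatives were a pseudocount of 0.1, no filter, median-of-ratios scaling, quantile normalization, a replicate block, no abundance trend, a model of the compared groups alone, a model without all cells labelled wild-type, and each replicate left out. A block with crossed numbers was added after seeing the data. At high IIS, same-numbered muscle cells libraries deviated together (r of 0.288 to 0.683 in 4 pairs), as did *daf-2(lf)* muscle and all cells (0.166 to 0.393) and double mutant muscle and all cells (0.206 to 0.441). *daf-16(lf)* muscle and all cells did not (r of -0.200 for replicate 1 and -0.148 for replicate 2). *daf-2(lf)* and double mutant libraries of the same cells did not deviate together in every pair.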

Additional observations from a re-analysis of the deposited data

Results flagged for a closer look

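In groups of 4 libraries, 1 library of Y57E12B.1 stood far from the others in wild-type muscle cells (7.17 TPM, the others at 0) and in *daf-16(lf)* muscle cells (0.386 TPM, the others at 0). The same held for Y71F9AM.8 in *daf-16(lf)* muscle cells (0.997 TPM, the others at 0), K06H6.2 in *daf-16(lf)* muscle cells (1.03 TPM, the next at 0.0660) and Y60C6A.3 in wild-type muscle cells (0.127 TPM, the others at 0). The first 4 of these are replicate 4 of their group and the last is replicate 2. In 4 of the 5 cases all other libraries were at 0, which meets Dixon's criterion whatever the value, and groups wholly at 0 cannot meet it. The number of such cases, 5 of 10 groups against the 1 in 20 that chance gives where values are not mostly 0, was therefore set by the zeros and is not read as a pattern.

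The *daf-2(lf)* minus double mutant difference was smaller in muscle cells than in all cells, by the test of the difference itself, for Y57E12B.4 (-3.25), Y57E12B.11 (-4.38), Y60C6A.2 (-5.97), ZK488.6 (-1.45), *nstp-7* (-1.42) and *nnt-1* (-2.52, all log2). All but *nnt-1* are neighbours, for which this direction was largely fixed, as said above. *nstp-7*, ZK488.6 and Y57E12B.4 could be tested only through *daf-2(lf)* all cells. The call of Y57E12B.11 was lost in 11 of 20 alternatives, and the value of *nstp-7* fell to -0.06 in 1 of them.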

How the results depend on the processing

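The *daf-2(lf)* minus double mutant difference of the 5 genes in all cells was positive under every alternative run. The choice used these libraries and largely fixed that sign, so nothing is read from it. For Y71F9AM.8 in muscle cells it ran from -0.04 (without replicate 3 of the double mutant) to 0.39 with 1 library left out. In all cells, 358 genes passed, against 155 with a pseudocount of 0.1, 158 in a model of the compared groups alone, 237 with median-of-ratios scaling and 770 with no filter (263 to 340 with 1 library left out). In muscle cells 90 passed, against 3 in the compared groups alone and 43 to 685 with 1 library left out, 685 without replicate 1 of the double mutant, 43 without its replicate 3 and 52 without replicate 1 of *daf-2(lf)*. The difference between cell types passed for 133 genes, against 62 with a pseudocount of 0.1, 76 in the compared groups alone, 53 with quantile normalization, 238 with no filter and 117 to 158 with 1 library left out. At high IIS, wild-type minus *daf-16(lf)* passed for 0 genes in muscle cells, against 4 in the model that leaves aside all cells labelled wild-type and 0 to 3 with 1 library left out (3 without replicate 1 of *daf-16(lf)*). In all cells it passed for 2574, against 0 in the compared groups alone, 1186 with quantile normalization, 3863 with a pseudocount of 0.1 and 686 to 5400 with 1 library left out (686 without replicate 2 of *daf-16(lf)*, 1603 without its replicate 1, 5400 without replicate 2 of those labelled wild-type). Muscle minus all cells in *daf-16(lf)* passed for 3106, against 844 (without replicate 2 of all cells) to 3884 with 1 library left out. With the replicate block, 463 genes passed in all cells and 176 in muscle cells at low IIS, 142 in the difference between them and 0 in wild-type against *daf-16(lf)* muscle cells. The block gave 3483 genes in all cells at high IIS, and 3523 with crossed numbers, as the same-numbered libraries there deviated in opposite directions.

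Of the DAF-16-raised genes, 3 were higher in muscle cells, against 5 with the replicate block, 5 with median-of-ratios scaling, 1 in the compared groups alone and 3 to 4 with 1 library left out. Of the IIS components, 2 were higher in all cells, against 0 with a pseudocount of 0.1, 1 with quantile normalization, 0 with median-of-ratios scaling, 0 in the compared groups alone and 0 to 0 with 1 library left out. In muscle cells it was 1, against 0 with a pseudocount of 0.1, 2 with quantile normalization, 2 with median-of-ratios scaling, 0 in the compared groups alone and 2 in the model that leaves aside all cells labelled wild-type. The causes were not tested. The call of Y57E12B.11 between cell types was lost without any 1 of the 6 muscle cells libraries, without replicate 2 or 3 of *daf-2(lf)* all cells, or without replicate 1 of the double mutant all cells. TPM shows no depth, so values near 0 set no limit on expression.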
